A study of Mus musculus with 4 samples.

Results

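Glycerolipid synthesis, lipolysis and lipid droplet storage were followed through 10 genes, Gpam, Lpin1, Lpin2, Lpin3, Dgat1, Dgat2, Pnpla2, Pnpla3, Plin2 and Plin3, which were picked by name out of 18194 genes on the array. They are read by 18 probe sets that carry only their symbol, of 45101 probe sets in all, and each gene took its value from its brightest probe set, by mean log2 signal over the 4 arrays. RNA came from cerebrums of mice with floxed Mfsd2a alleles, an allele that all groups share, and each group was a pool of RNA from 5 to 6 hemi-cerebrums on 1 Affymetrix Mouse 430 2.0 array. The 2aECKO pool (Mfsd2afl/fl, Tie2-cre, postnatal day 9) lacks Mfsd2a in endothelium from development on, and the 2afl/fl pool of the same day, without cre, is its control. The 2aiECKO pool (Mfsd2afl/fl, Cdh5ERT2-cre, postnatal day 8) lost Mfsd2a in endothelium after 4-hydroxytamoxifen (4-OHT) given from birth, and the 2afl/fl 4-OHT pool of the same day, without cre, is its control. Tie2-cre is also known to act in cells of the blood lineage, so its deletion is not purely endothelial as a model.

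Triacylglycerol, the storage fat, is built on glycerol 3-phosphate. Gpam adds the first acyl chain at the mitochondrion, other acyltransferases add the next, the lipins (Lpin1, Lpin2, Lpin3) remove the phosphate to leave diacylglycerol, and Dgat1 or Dgat2 adds the last chain. The same diacylglycerol feeds the synthesis of phosphatidylcholine and phosphatidylethanolamine, the main phospholipids of brain membranes. Perilipins such as Plin2 and Plin3 coat the droplets in which the fat is kept, and Pnpla2 (adipose triglyceride lipase) starts its breakdown. In liver, Gpam, Lpin1 and Pnpla3 are known targets of the Srebp family of transcription factors, and Plin2 is known to follow fatty acid load through PPAR receptors.

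With 1 array per group, no difference here has a replicate check, no p-value is given, and precision is limited by the number of arrays. Levels are given as RMA signal, an intensity on a linear scale. Higher genes had a log2 difference of at least 0.322 and a knockout signal no lower than 50, the thresholds of the study, and lower genes met the mirror image, with the signal asked of the control. Both are called the size rule here. Genes with sufficient signal, the base for shares and medians, reached 50 on 1 or both arrays of the pair. The pairs were on different scales, with median signals of 75.5 in 2aECKO and 74.1 in 2afl/fl, and of 49.2 in 2aiECKO and 48.7 in 2afl/fl 4-OHT, so each knockout was set against its own control. The only probe set of Mfsd2a read 410 in 2aECKO and 423 in 2afl/fl, and 299 in 2aiECKO and 369 in 2afl/fl 4-OHT. The sources used here do not say whether this probe set lies in the deleted part of the gene, so no check of the labels can rest on it. In tissue RNA, more cells of a type and more RNA per cell cannot be told apart.

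The 4 genes with the largest increases in either pair were taken for a look at their start regions. Lpin1 and Pnpla3 passed the size rule in 2aECKO alone, Plin2 in 2aiECKO alone and Gpam in neither, so no shared change is implied. The start regions are shown as a description. They are taken from RefSeq on GRCm38.p6, from 250 bases before to 10 bases after an annotated start, read 5′ to 3′ on the strand of the gene: Gpam at chr19:55127229-55127488 (minus strand), Lpin1 at chr12:16610957-16611216 (minus), Pnpla3 at chr15:84167566-84167825 (plus) and Plin2 at chr4:86670050-86670309 (minus). Capitals mark matches, on either strand, to a CCAAT box (CCAAT), an E-box (CACGTG), a sterol regulatory element core (TCACNCCAC) or a PPAR response element of the DR1 type (AGGTCA, any 1 base, then AGGTCA again).
Gpam: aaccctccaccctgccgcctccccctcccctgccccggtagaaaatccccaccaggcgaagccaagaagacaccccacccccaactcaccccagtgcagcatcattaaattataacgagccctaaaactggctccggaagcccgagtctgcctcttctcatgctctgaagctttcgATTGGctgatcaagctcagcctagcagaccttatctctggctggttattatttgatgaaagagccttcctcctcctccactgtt
Lpin1: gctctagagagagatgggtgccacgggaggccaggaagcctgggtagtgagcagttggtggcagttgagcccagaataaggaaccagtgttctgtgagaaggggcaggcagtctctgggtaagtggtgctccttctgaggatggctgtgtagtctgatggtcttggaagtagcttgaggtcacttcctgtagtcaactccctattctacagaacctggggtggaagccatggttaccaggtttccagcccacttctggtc
Pnpla3: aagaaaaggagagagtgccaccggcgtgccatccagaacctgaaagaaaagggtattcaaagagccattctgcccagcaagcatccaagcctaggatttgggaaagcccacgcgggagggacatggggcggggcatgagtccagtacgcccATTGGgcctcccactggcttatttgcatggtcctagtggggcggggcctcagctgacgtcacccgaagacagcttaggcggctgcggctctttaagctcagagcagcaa
Plin2: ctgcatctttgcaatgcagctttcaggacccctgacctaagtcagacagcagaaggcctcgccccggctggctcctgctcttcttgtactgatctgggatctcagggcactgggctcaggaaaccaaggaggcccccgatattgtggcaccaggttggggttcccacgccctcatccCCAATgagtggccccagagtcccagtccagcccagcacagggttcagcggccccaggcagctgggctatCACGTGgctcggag

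Of the 10 genes, 8 matched an entry, all but Dgat1 and Dgat2, and their 12 annotated start windows were searched. The sterol regulatory element core was matched in 0 of the 12 windows, against 1.1% of 32851 windows of the same length over all genes, and the PPAR element in 0 of 12, against 0.0335%. A CCAAT box lay in 5 of 12 windows, against 34.6% of all windows. It lay at position -74 from 1 start of Gpam, and at -73 for Plin2, -75 for Plin3 and -99 for Pnpla3. The window of 1 start of Lpin2 had boxes at -233, -165 and -57. The other Gpam window, which is not shown, matched none of the motifs. An E-box lay in 2 of 12 windows, against 6.34% of all, 9 bases before a Lpin2 start and across the Plin2 start, 4 bases before it. None of the motifs was matched in the window of Lpin1. A match describes letters only and is not a measured site, and a window without one says nothing about the factor.

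Gpam, the mitochondrial acyltransferase of the first step, stood above its control in both knockouts by similar amounts. Its signal was 1756 in 2aECKO and 1485 in 2afl/fl, a log2 difference of 0.24. In the induced model it was 1518 in 2aiECKO and 1245 in 2afl/fl 4-OHT, a log2 difference of 0.29. These are 1.18-fold and 1.22-fold, both short of the size rule. Among all genes with a signal of at least 50 on 1 array of the pair, 4.76% had a log2 difference at least as high in 2aECKO and 2.51% in 2aiECKO. The second, dimmer Gpam probe set gave log2 differences of 0.077 in 2aECKO and 0.092 in 2aiECKO, in the same direction and smaller.

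Among the lipins, Lpin1 stood above its control in both knockouts at both of its probe sets, while Lpin2 did not. Lpin1, which makes diacylglycerol and also acts in the nucleus as a regulator of lipid genes, read 302 in 2aECKO and 230 in 2afl/fl, a log2 difference of 0.39 or 1.31-fold. It read 198 in 2aiECKO and 168 in 2afl/fl 4-OHT, a log2 difference of 0.24. Its other probe set read 151 in 2aECKO and 120 in 2afl/fl, and 110 in 2aiECKO and 93.6 in 2afl/fl 4-OHT, log2 differences of 0.33 and 0.24. The Lpin1 probe sets therefore both passed the size rule in 2aECKO and neither did in 2aiECKO. Of all tested genes, 1.27% had a log2 difference as high as that of Lpin1 in 2aECKO, and 3.93% in 2aiECKO.

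Lpin2, the second lipin of this tissue, stood close to its controls. It read 663 in 2aECKO and 626 in 2afl/fl, and 541 in 2aiECKO and 549 in 2afl/fl 4-OHT. Its 4 probe sets did not share a direction in 2aECKO, where the log2 differences were 0.084, -0.067, -0.19 and 0.40. The last came from a probe set that read no more than 26.5 on the 4 arrays, below the minimum of 50. In 2aiECKO the same probe sets gave -0.021, -0.10, 0.014 and 0. Lpin3 was read below the minimum signal on all 4 arrays, at 22.8 in 2aECKO, 23.0 in 2afl/fl, 12.1 in 2aiECKO and 14.5 in 2afl/fl 4-OHT, and no difference is drawn from it.

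**Figure D1:**
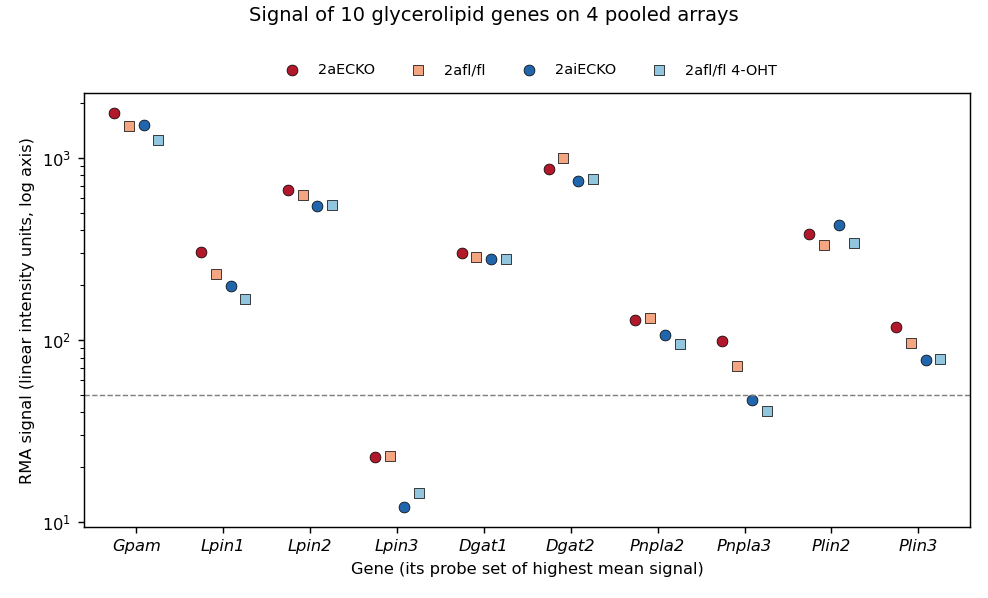
RMA signal (log axis) of the 10 genes on the 4 pooled arrays, circles for knockouts and squares for their controls; each point is 1 array, and the dashed line marks the minimum signal of 50. Gpam and Lpin1 lie above their control in both pairs, Dgat2 lies below it in 2aECKO, and Lpin3 lies under the line on all arrays.

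The enzymes of the last step did not follow Gpam and Lpin1. Dgat1 read 299.9 in 2aECKO and 284 in 2afl/fl, and 277 in 2aiECKO and 279 in 2afl/fl 4-OHT, log2 differences of 0.077 and -0.0078. The dimmer Dgat1 probe set read 74.3 in both 2aECKO and 2afl/fl. In the induced pair it read 26.6 in 2aiECKO and 24.1 in 2afl/fl 4-OHT, both below the minimum signal, a log2 difference of 0.14. Dgat2, which makes most triacylglycerol in adipose tissue and liver, read 868 in 2aECKO and 995 in 2afl/fl, a log2 difference of -0.20, the lowest of the 9 genes with sufficient signal in that pair. In the induced model Dgat2 read 747 in 2aiECKO and 760 in 2afl/fl 4-OHT, a log2 difference of -0.026. Its other probe set gave -0.14 in both pairs, so all of its readings lay below their control, and none reached the size rule for lower genes. In 2aECKO, 6.94% of tested genes had a log2 difference as low as that of Dgat2.

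Of the lipases in 2aECKO, Pnpla2 lay near its control and Pnpla3 stood above its control. Pnpla2, the lipase that opens triacylglycerol breakdown, read 128 in 2aECKO and 132 in 2afl/fl, a log2 difference of -0.052, and 106 in 2aiECKO and 95.3 in 2afl/fl 4-OHT, a log2 difference of 0.16. Its dimmer probe set, under 50 on all arrays, gave 0.039 and 0.19. Pnpla3, a relative of Pnpla2 with lipase and acyltransferase activities described in liver, had the highest log2 difference of the 10 genes in 2aECKO. It read 98.0 in 2aECKO and 71.8 in 2afl/fl, a log2 difference of 0.45 or 1.36-fold, and 0.834% of tested genes were as high. In the induced pair it read 46.6 in 2aiECKO and 40.8 in 2afl/fl 4-OHT, both below the minimum signal, with a log2 difference of 0.19. Pnpla3 has a single probe set, so no second reading bears on it, and at a minimum signal of 100 it was no longer counted.

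Plin2 stood above its control in both knockouts, and Plin3 did so in 2aECKO but not in 2aiECKO. Plin2, a droplet coat protein found in most cells that store lipid, read 379 in 2aECKO and 332 in 2afl/fl, a log2 difference of 0.19. It read 427 in 2aiECKO and 340 in 2afl/fl 4-OHT, a log2 difference of 0.33 or 1.26-fold, a value just past the size rule that 1.74% of tested genes reached. With 16 added to each signal before log2, Plin2 no longer passed. Plin3, which coats small nascent droplets, read 117 in 2aECKO and 96.7 in 2afl/fl, a log2 difference of 0.28. In the induced pair Plin3 read 77.2 in 2aiECKO and 78.2 in 2afl/fl 4-OHT, a log2 difference of -0.019. Both perilipins have 1 probe set each.

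**Figure D2:**
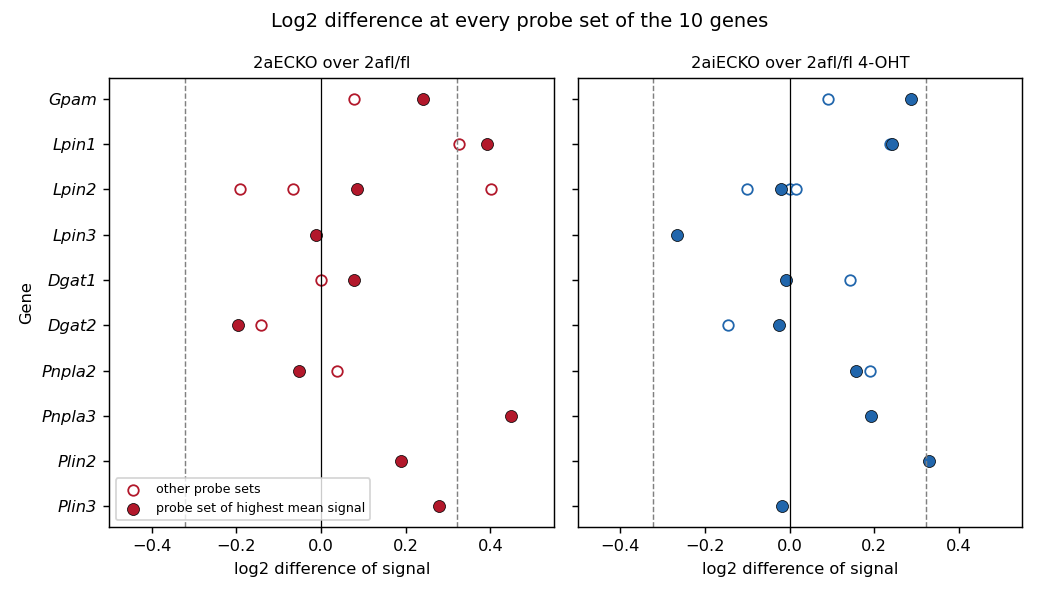
Log2 difference of signal (horizontal axis) at each of the 18 probe sets of the 10 genes, in 2aECKO over 2afl/fl (left, red) and in 2aiECKO over 2afl/fl 4-OHT (right, blue); filled points give the gene's value, open points its other probe sets, and dashed lines mark the size rule of 0.32 either way. Both Lpin1 points lie past the line on the left, both Gpam points lie right of 0 in each panel, and both Dgat2 points lie left of 0 in each panel.

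By the size rule, 2 of 9 genes with sufficient signal were higher in 2aECKO, Lpin1 and Pnpla3, and 0 were lower. Over all genes that could pass, 2.21% were higher and 1.74% lower. In 2aiECKO 1 of 8 genes was higher, Plin2, and 0 were lower, against 1.88% and 0.598% of all genes. Every gene that passed the minimum did so on both arrays of its pair. With so few genes, a count of 2 or of 1 is a description and not a test. The median log2 difference was 0.19 in 2aECKO over the 9 genes and 0.075 in 2aiECKO over the 8, while over all genes it was -0.0071 in 2aECKO and -0.0047 in 2aiECKO.

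Of the 8 genes with sufficient signal in both pairs, Gpam, Lpin1 and Plin2 were above their control in both models, Dgat2 was below it in both, and 4 had opposite signs. Among all 12017 genes measured in both, 3412 (28.4%) were above 0 in both, 3963 were below 0 in both and 4110 (34.2%) had opposite signs. The pairs share no array. The largest gap between the models among the 8 was that of Plin3, 0.30 on the log2 scale in favor of 2aECKO, and Pnpla2 stood 0.21 the other way. These gaps were not tested, and model, age, cre line and 4-OHT cannot be told apart. To see how far the control pools themselves lie apart, the 4 arrays were quantile-normalized together. The log2 difference of 2afl/fl minus 2afl/fl 4-OHT was then -0.37 for Plin2, -0.33 for Dgat1, -0.24 for Plin3 and 0.19 for Pnpla3, with the other 6 genes between -0.12 and 0.11. The gap between the control pools was thus larger for Plin2, Dgat1 and Lpin2 than either of their differences from a knockout on the same scale.

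**Figure D3:**
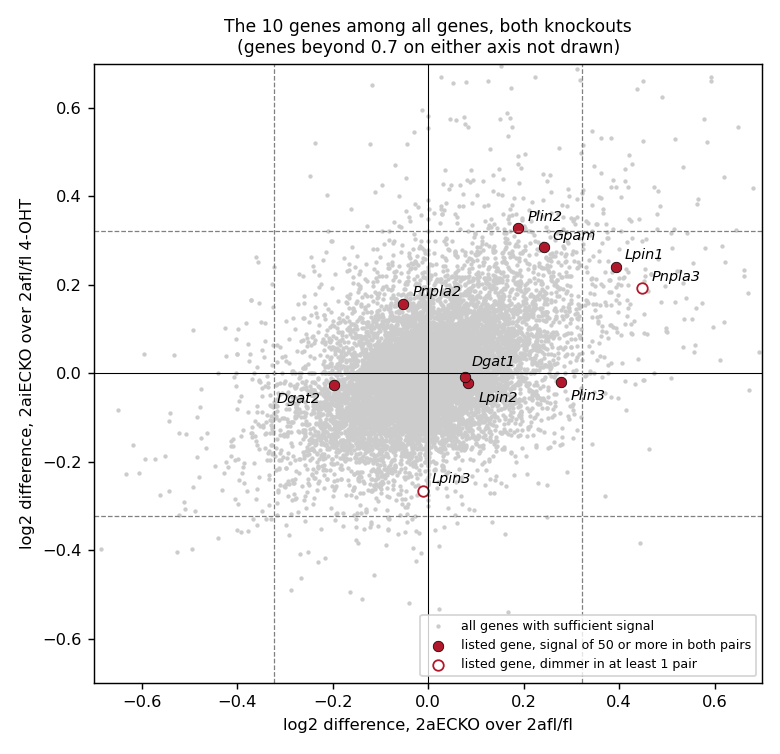
Log2 difference in 2aECKO over 2afl/fl (horizontal axis) against that in 2aiECKO over 2afl/fl 4-OHT (vertical axis); grey points are the genes with sufficient signal in both pairs (those beyond the axes are not drawn), red points the 10 genes, open where the signal was under 50 in at least 1 pair, and dashed lines mark 0.32 either way. Gpam, Lpin1 and Plin2 lie in the upper right, Plin3 lies right of 0 at a height of -0.019, and Dgat2 lies left of 0.

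The rest of the pathway was read through 35 further genes, of which 33 were matched to a probe set. With sufficient signal, 1 of 25 was higher in 2aECKO and 0 lower, against 2.21% and 1.74% of all genes. In 2aiECKO 0 of 22 were higher or lower, against 1.88% and 0.598% of all genes. The median log2 differences were -0.033 in 2aECKO and 0 in 2aiECKO. The 1 higher gene was Plpp3, a lipid phosphate phosphatase of the plasma membrane that is abundant in astrocytes. Plpp3 read 3836 in 2aECKO and 2961 in 2afl/fl, a log2 difference of 0.37, and 2822 in 2aiECKO and 2260 in 2afl/fl 4-OHT, a log2 difference of 0.3206 that fell just short of the size rule. Plpp1, of the same family, had log2 differences of 0.068 in 2aECKO and -0.057 in 2aiECKO, and Plpp2 had 0.041 in 2aECKO and -0.063 in 2aiECKO.

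Acyltransferases other than Gpam stood near their controls. The 7 with sufficient signal in 2aECKO lay between -0.16 and 0.18, and the 5 in 2aiECKO between -0.041 and 0.012. Gpat4, the acyltransferase of the endoplasmic reticulum for the same first step as Gpam, read 382 in 2aECKO and 389 in 2afl/fl, and 404 in both 2aiECKO and 2afl/fl 4-OHT. The difference of Gpam was therefore not seen in Gpat4.

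Genes of lipolysis other than Pnpla2 and Pnpla3 lay below their control in 2aECKO, by amounts under the size rule. All 8 with a signal of at least 50 on both arrays had a log2 difference below 0 there, from -0.27 to -0.010, with a median of -0.11, while 46.0% of all genes with sufficient signal had one above 0. Pnpla1, a relative of Pnpla2, read 44.1 in 2aECKO and 50.3 in 2afl/fl and reached the minimum through its control alone, so it is left out of this count. Abhd6 and Mgll, hydrolases of monoacylglycerol, had -0.27 and -0.21, and Hilpda, an inhibitor of Pnpla2, had -0.17. Abhd5, the activator of Pnpla2, and G0s2, another inhibitor of it, had -0.055 and -0.050. In 2aiECKO 4 of 8 lay above 0, from -0.17 to 0.11, where Hilpda again had -0.17 and Mgll had 0.11.

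Droplet coat and assembly genes other than Plin2 and Plin3 had median log2 differences of 0.0053 in 2aECKO and -0.0042 in 2aiECKO, over 6 genes with sufficient signal in each. Cidea, which promotes droplet fusion in brown fat, was the highest, with signals of 151 in 2aECKO and 129 in 2afl/fl, and of 182 in 2aiECKO and 153 in 2afl/fl 4-OHT, log2 differences of 0.23 and 0.25. Plin5, a perilipin of oxidative tissues, had 0.084 in 2aECKO and 0.22 in 2aiECKO. Bscl2, the seipin that shapes nascent droplets, had 0.011 and 0.022. Of 5 adipocyte markers measured, Retn, which encodes resistin, read 72.4 in 2aECKO and 81.6 in 2afl/fl, and 46.4 in 2aiECKO and 43.7 in 2afl/fl 4-OHT. The other 4 stayed below 50, and Adipoq read at most 11.1, Lep at most 19.1, Fabp4 at most 26.3 and Cidec at most 16.2 on any array.

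**Figure D4:**
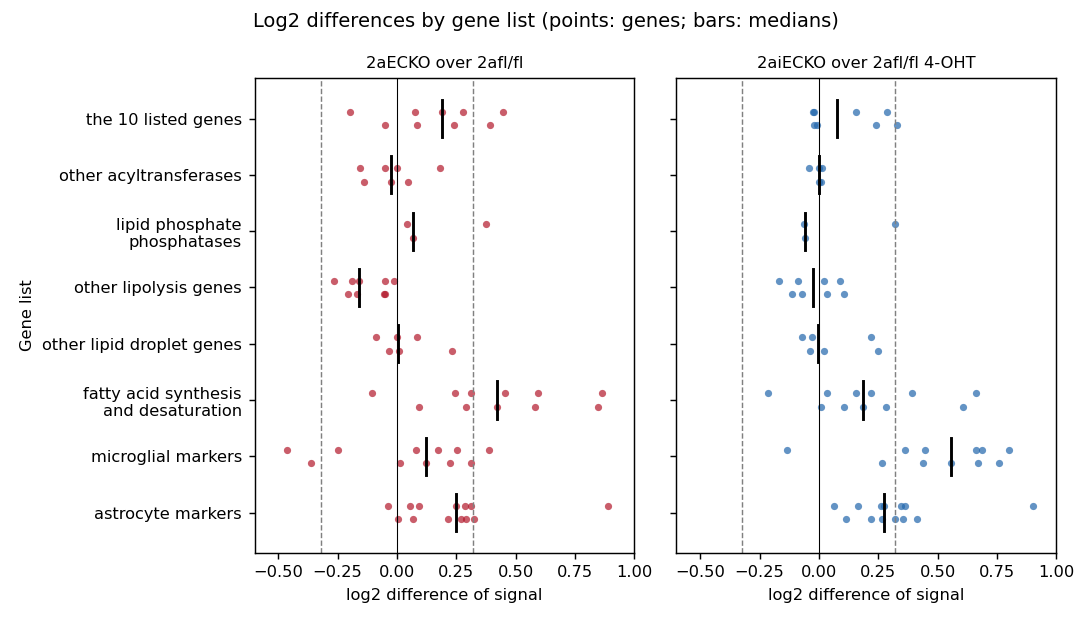
Log2 difference of signal (horizontal axis) of the genes of each list with sufficient signal, in 2aECKO over 2afl/fl (left) and in 2aiECKO over 2afl/fl 4-OHT (right); each point is 1 gene, bars are medians and dashed lines mark the size rule of 0.32. The 10 listed genes have medians of 0.19 and 0.075, and the other lipolysis genes lie left of 0 in the left panel. Microglial and astrocyte markers lie mostly right of 0 in both panels.

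Fatty acid synthesis and desaturation, the supply of acyl chains to the pathway, was read through 11 genes for comparison. Of these, 6 were higher in 2aECKO and 3 in 2aiECKO, against 2.21% and 1.88% of all genes. Their medians were 0.42 and 0.18, against -0.0071 and -0.0047 over all genes. Srebf1, which encodes Srebp-1, had log2 differences of 0.85 and 0.61, and Thrsp, a lipogenic gene, had 0.59 and 0.66. The differences of Gpam and Lpin1 were smaller than those of Srebf1 in both models, as was that of Pnpla3 in 2aECKO. Against the median of these 11 genes in 2aECKO, Gpam (0.24) and Lpin1 (0.39) lay below and Pnpla3 (0.45) above. In 2aiECKO Gpam (0.29) and Lpin1 (0.24) lay above that median, and Pnpla3 was under 50. Me1, another of the 11, had -0.11 in 2aECKO and -0.21 in 2aiECKO. Whether the lists differ was not tested. PPARA targets, which include genes that respond to fatty acids, had medians of 0.055 in 2aECKO and 0.11 in 2aiECKO over the 5 genes with a signal of at least 50 on both arrays. Of these Pdk4, which restrains glucose oxidation, had 0.36 and 0.40. Ehhadh, an enzyme of peroxisomal fatty acid oxidation, read 51.9 in 2aECKO and 37.7 in 2afl/fl, a log2 difference of 0.46. It reached the minimum through 2aECKO alone and is left out of that median, and it was under 50 on both arrays of the induced pair. Angptl4, another gene of that response, had -0.043 and -0.013.

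Markers of several cell types moved in the same arrays, and their part in the values above was not tested. Over all genes with sufficient signal, 2.21% were higher and 1.74% lower in 2aECKO, and 1.88% and 0.598% in 2aiECKO. Of the same genes, 46.0% were above 0 in 2aECKO and 46.4% in 2aiECKO. A count of 1 in a short marker list is a description only. In 2aiECKO, where Plin2 passed the size rule, 9 of 11 microglial markers with sufficient signal were higher, with a median log2 difference of 0.56. The 12 matched microglial markers, which include Itgam below the minimum, had a summed signal of 6424 in 2aiECKO and 4396 in 2afl/fl 4-OHT. All 5 phagocyte genes measured, among them Gpnmb and Apoc1, were higher there, with a summed signal of 1132 in 2aiECKO and 642 in 2afl/fl 4-OHT. In 2aECKO 4 of these 5 were higher, with a summed signal of 650.2 in 2aECKO and 474 in 2afl/fl. In 2aECKO 1 of 11 microglial markers was higher and 2 were lower, and the 12 matched had summed signals of 5181 in 2aECKO and 4855 in 2afl/fl. Astrocyte markers had medians of 0.25 in 2aECKO and 0.27 in 2aiECKO, and 2 and 5 of 13 were higher. Neuronal markers had medians of -0.061 and -0.034. Of 3 red cell markers matched, only Alas2 had sufficient signal in 2aECKO. Alas2 read 119.6 in 2aECKO and 57.9 in 2afl/fl, a log2 difference of 1.05, and was under 50 on both arrays of the induced pair. Hba-a2, the 1 red cell marker with sufficient signal in 2aiECKO, had -0.19 there. Endothelial markers, those of the cell type in which Mfsd2a was deleted, had a median of 0.022 in 2aECKO, and of -0.14 in 2aiECKO, where 8 of 10 were below 0 and 1 was lower. Choroid plexus markers with sufficient signal were all above 0, 5 of 5 in each pair, with medians of 0.27 in 2aECKO and 0.17 in 2aiECKO, and 2 and 1 of them were higher. Oligodendrocyte markers had a median of -0.017 in 2aECKO. In 2aiECKO the 5 with a signal of at least 50 on both arrays were all above 0. Their median was 0.28, and 1 was higher. Mobp read 51.0 in 2aiECKO and 48.5 in 2afl/fl 4-OHT. It reached the minimum through 2aiECKO alone and is left out of this count and median. In 2aECKO, where Lpin1 and Pnpla3 passed the size rule, 5 of 6 nuclear-retained RNAs were higher, with a median of 0.46. In 2aiECKO 0 of 6 were higher, with a median of 0.20.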

How the data were processed

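Pooled cerebrum RNA of each of the 4 groups was hybridised to 1 Affymetrix Mouse 430 2.0 array. The authors deposited linear intensity values from RMA, after background adjustment and then quantile normalization. The methods name the affy package, and the submitters' processing notes name Partek 6.6. One label of the 2aiECKO sample, its source name, says 2aECKO, and the title and genotype were followed. After sorting, log2 values differed by at most 0.07 within a pair and by up to 0.79 between the control arrays. Within a pair 2368 and 2850 probe sets had equal values on both arrays.

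Log2 of the deposited intensity was taken and subtracted within a pair. Of 45101 probe sets, 34958 carry 1 symbol, 932 several and 9211 are unnamed here; names come from the platform annotation, updated by gene identifier through RefSeq GRCm38.p6. Higher genes had a fold of at least 1.25 and 50 or more in the knockout, and lower genes a fold of at most 0.8 and 50 or more in the control. Shares and medians are over genes with 50 or more on either array of the pair, a base chosen here. The text names the 10 members and, of other lists, genes past that rule, with further genes chosen after their values were seen. Members and lists were chosen with earlier results of these data known. Of 153 listed genes 140 were matched. With 1 array per group no test was run, and the knockouts, which differ in cre line, age and 4-OHT, were not pooled as replicates of 1 condition. The calculation was tested on simulated data. Python 3.11.15, numpy 2.4.6, pandas 2.3.3, statsmodels 0.14.6 and matplotlib 3.10.9 were used. Alternatives were another probe set rule, normalization, centring, offset, minimum signal, fold and control.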

Additional observations from a re-analysis of the deposited data

Results flagged for a closer look

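Lpin2, Dgat1, Pnpla2 and Plin3 had opposite signs in the models, and none of these differences was tested. The log2 differences were 0.084 in 2aECKO and -0.021 in 2aiECKO for Lpin2, 0.077 and -0.0078 for Dgat1, -0.052 and 0.16 for Pnpla2, and 0.28 and -0.019 for Plin3. For Lpin2 and Dgat1 both values lay within 1 robust SD of all single-gene differences, which was 0.12 in 2aECKO and 0.10 in 2aiECKO, and the same holds for the negative values of Pnpla2 and Plin3.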

How the results depend on the processing

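Lpin1 and Pnpla3 were the genes higher in 2aECKO under 8 of 10 alternatives. At a minimum signal of 100 only 1 was counted, Lpin1, and at a fold of 1.5 the count was 0. Plin2 was the gene higher in 2aiECKO under 8 of 10 alternatives, and the count was 0 with 16 added to the signal before log2 and 0 at a fold of 1.5. No gene was counted lower in either comparison under any alternative run. Against the mean of both controls, after quantile normalization over all 4 arrays, the median in 2aECKO was 0.025 in place of 0.19, since this setting brings the gap between the control pools into the difference. Of 140 single-gene values under alternatives, 8 moved by more than 1 robust SD of all genes, 6 of them under that setting. There Plin2 had 0.0079 in 2aECKO and 0.51 in 2aiECKO. With only the more specific probe sets, Dgat1 in 2aiECKO had 0.14, from a probe set that read under 50 on both arrays of the induced pair. No paired analysis was possible because, within either comparison, each group has 1 array; a fit that takes the models as replicates of 1 knockout was not run. Signals under 50, among them those of Lpin3 and, in the induced pair, of Pnpla3 and the dimmer Dgat1 probe set, limit what can be read there.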
